A study of Mus musculus with 11 samples.

Results

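What drug-resistant clones of one medulloblastoma line had in common was examined by setting 5 clones, whichever gene was mutated in them, against untreated cells of the line they came from. The line is SMB21, a mouse medulloblastoma line on the Ptch1tm1Mps/J strain background, labelled as a Ptch mutant from an adult animal and grown as neurospheres. The clones were Sufu-mutant R13 and R1 and Ofd1-mutant R14, R16 and R25, all found in a transposon screen, and each is a single clone. Clone R14 was sequenced as 2 libraries, which the labels call biological replicates of it and which were summed, so that 6 clone libraries gave 5 replicates. The untreated parental cells gave 3 biological replicates. These 9 of the 11 libraries in the series entered the comparison, and parental cells kept for 24 h with sonidegib, an inhibitor of Smoothened, gave the other 2, whose levels are given as description only. Every group carries the Ptch1 mutation, no group lacks it, and the labels do not state whether the clones were grown with drug.

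Hedgehog signalling passes through the primary cilium. The receptor Ptch1 holds the membrane protein Smo inactive, and loss of Ptch1 in granule cell progenitors of the cerebellum lets Smo signal without ligand. Active Smo releases the Gli transcription factors from Sufu, which binds and restrains them, and Gli factors then switch on targets that include Gli1, Ptch1 and Hhip. Ofd1 sits at the centriole from which the cilium grows, so both mutated genes act below or beside the step that sonidegib blocks.

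The libraries held 24308451 to 37457641 counts in the clones and 32376390 to 38241595 counts in the untreated parental cells. Cerebellar granule lineage markers were high in both groups, with Atoh1 at 247 to 566 CPM in the clones and 397 to 546 CPM in parental cells, where CPM stands for counts scaled to a common library size with TMM factors. Markers of other cell types were not all absent. Microglial and macrophage genes summed over 15 genes to 1.35 to 2.55 CPM of the library total in the clones and 1.58 to 1.65 in parental cells, with 14 of the 15 under 1 in every library, and Aqp4, Dcn, Kdr and Pdgfrb stayed at or below 0.187 on that scale. Pdgfra, a growth factor receptor gene of oligodendrocyte precursors, was at 191 to 453 CPM of the library total in the clones and 142 to 368 in parental cells. Sox10, a defining factor gene of that lineage, reached at most 2.74 in the clones and 0.0299 in parental cells. Pdgfra made up most of the sum over 13 oligodendrocyte lineage genes, 224 to 482 in the clones and 170 to 415 in parental cells. The sum over 14 fibroblast and pericyte genes was 38.1 to 91.9 in the clones and 20.96 to 43.5 in parental cells, and the endothelial gene Cdh5 was at 1.93 to 12.4 and 1.27 to 8.93. The part of these levels in the results was not tested. The parental libraries were not alike. Parental replicates 1 and 2 differed from each other by an SD of 0.217 on the log2 scale over 10902 genes and from replicate 3 by 0.529 and 0.534, which lies within the range of 0.469 to 0.626 between single clone and parental libraries. On the first principal component, 26.7% of the variance, the clone libraries lay at 3.70 to 28.3 and the parental replicates at -55.9, -51.0 and -9.14, so replicate 3 stood nearest to the clones.

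Over all 13891 genes tested, 1 gene passed the edgeR quasi-likelihood test in the clones at a Benjamini-Hochberg adjusted p under 0.05, which is 0.0072% of genes. It was lower in the clones, and 0 genes were called higher. Called, and passed, refer to this edgeR test unless DESeq2 is named. At an unadjusted p under 0.05 there were 839 genes higher (6.04%) and 690 lower (4.97%), in all 11% of genes. DESeq2 on the same libraries called 254 genes higher (1.69%) and 170 lower (1.13%), 2.82% of the 15039 genes to which it gave an adjusted p. In the expression levels themselves, 520 genes (3.74%) lay above the highest parental library in every clone and 572 (4.12%) lay below the lowest. Of these, 219 had a log2 fold change of 1 or more (1.58% of all genes) and 92 of -1 or less (0.662%). These are called here genes set apart in all 5 clones, which is a statement on ranges and not a call. The edgeR count was 64 without parental replicate 3, 10 without clone R25 and 4 without clone R1, and it was 0 against parental replicate 3 alone.

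The mutated genes were read first, as a check of the labels. Ofd1 stood at 18.4, 9.19 and 13.8 CPM in the Ofd1-mutant clones R14, R16 and R25 and at 43.0 and 40.4 CPM in the Sufu-mutant clones R13 and R1, against 43.0, 35.3 and 37.0 CPM in parental cells. The Ofd1 mutants were low and the Sufu mutants were within or near the parental range, so all 5 clones did not share a low Ofd1 level (log2 fold change of -0.62 ± 0.46 SE, edgeR adjusted p = 0.652; exact two-sided permutation p = 0.321). Sufu stood at 2.79 and 17.8 CPM in R13 and R1 and at 12.1, 15.5 and 19.3 CPM in R14, R16 and R25, against 29.6, 27.6 and 28.5 CPM in parental cells. Every clone, mutated in Sufu or not, lay below every parental library, and R13 was far below the rest. Its log2 fold change was -1.08 ± 0.46 with an edgeR adjusted p of 0.438. The exact permutation p for Sufu alone was 0.0357, the smallest that the 56 splits of 8 samples allow.

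Sufu was low together with its neighbours on chromosome 19. Among genes that averaged 5 CPM or more, 18 in a row from Nfkb2 to Pdcd11 had a negative log2 fold change, 18 of 18. Of them 10 lay below every parental library in all 5 clones, where 4.12% of all genes tested did. The stretch was picked out for low values in these same clones, so the counts within it are not separate support. The median log2 difference of these 18 genes to the parental mean was -0.83 in R13, -0.75 in R1, -0.87 in R14, -0.93 in R16 and -0.28 in R25, against -0.04, -0.01 and 0.07 in the parental libraries. On a linear scale the median level was 56.4%, 59.5%, 54.5% and 52.5% of parental in the first 4 of these clones and 82.3% in R25. Sonidegib-treated parental cells were at 0.08 and 0.09. Thus 4 clones had low medians of like size and R25 a smaller difference, with 14 of its 18 genes below all parental libraries.

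Actr1a, a subunit of the dynactin complex and the gene just before Sufu, had nearly the same difference in 4 of the clones. Its difference to the parental mean was -0.96, -0.94, -1.06, -0.93 and -0.21 log2 in R13, R1, R14, R16 and R25, against 0.04, -0.13 and 0.09 in the parental libraries. Nt5c2, a nucleotidase gene 6 places after Sufu, was at -0.85, -1.01, -0.87, -0.87 and -0.51 in the clones, against 0.07, -0.14 and 0.07 in parental cells. Nt5c2 came closest to the threshold in this stretch by edgeR, with a log2 fold change of -0.82 ± 0.13 and an adjusted p of 0.0829. Arl3, a small GTPase that releases lipid-modified proteins inside the cilium, stood at 37.7, 27.3, 30.5, 28.7 and 40 CPM in the clones and at 57.1, 53.7 and 43.4 CPM in parental cells. As3mt, an arsenic methyltransferase gene in the same stretch but under the 5 CPM limit, was at or near 0 in 4 clones and low in R25. It stood at 0, 0, 0.0308, 0 and 0.288 CPM in R13, R1, R14, R16 and R25, against 1.87, 2.73 and 3.201 CPM in parental cells.

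Genes on either side were not low in most clones, and a second low stretch followed. The ends were not alike in every clone. In R1, Nfkb2, Fbxl15, Cuedc2 and Pdcd11 were near the parental mean, at -0.06, -0.15, -0.19 and -0.05, and in R13 Psd, the gene after Nfkb2, was at 0.69. The 15 genes before Nfkb2 had medians of 0.29, 0.26, 0.14, 0.02 and -0.15 in R13, R1, R14, R16 and R25, and 0 of them were set apart. The 7 genes after Pdcd11, from Neurl1a to Sorcs3, were at 0.24, 0.28, -0.05 and 0.43 in R13, R14, R16 and R25 but at -0.75 in R1, where all 7 lay below the parental libraries. The next 16 genes, Xpnpep1 to Tcf7l2, were low again in the same 4 clones, at -0.62, -0.61, -0.72 and -0.71 in R13, R1, R14 and R16, while R25 was at 0.03. Parental replicates 1, 2 and 3 were at -0.04, -0.03 and 0.18 there. Sonidegib-treated parental cells were at -0.16 and -0.38, both below the untreated medians, so this stretch was not low in clones alone. Of its 16 genes 3 lay below every parental library in all 5 clones, where 4.12% of all genes tested did. The 15 genes after Tcf7l2 stood at 0.05 to 0.38 in the clones and at -0.18, -0.22 and 0.26 in parental cells. Within the second stretch Tcf7l2 alone was low in R25 by more than 1 log2 unit, at -1.17.

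How this compares with the rest of the genome was described with running medians of 11 neighbouring genes. Of 10655 such windows, 502 had all 5 clones below and 183 had all 5 above the parental libraries. The longest unbroken run held 18 windows, centred on Nfkb2 to Pdcd11, and the next longest held 15. Among 173 runs of low windows it also had the widest gap between the nearest clone and the nearest parental library, 0.26 against 0.14 in the next. That next one lay on chromosome 10, around Esyt1 to Mmp19, with R13, R14 and R16 at -0.75, -0.89 and -0.81 and R1 and R25 at -0.17 and -0.19. Whole chromosomes were not shifted in common, since for 0 of 20 chromosomes did the median of all 5 clones fall outside the parental range on 1 side. The stretches were picked out after their values were seen, so no test is attached, and gene order was taken from GRCm38.p6 by symbol.

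**Figure D1:**
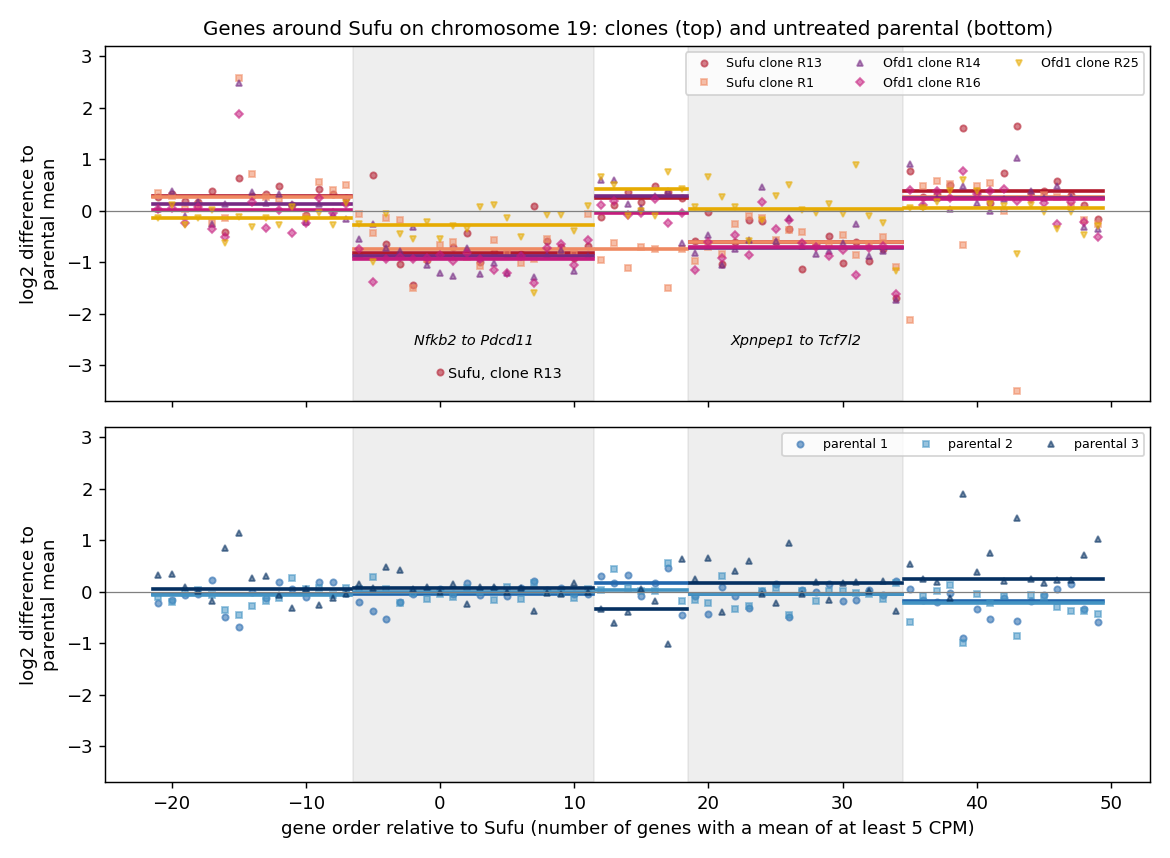
Log2 difference of each gene to the parental mean, by gene order relative to Sufu on chromosome 19, for the 5 clones in the upper panel and the 3 untreated parental libraries in the lower one. Thick lines are medians over a stretch and grey bands mark Nfkb2 to Pdcd11 and Xpnpep1 to Tcf7l2, where R13, R1, R14 and R16 lie between -0.93 and -0.61 while the parental medians lie between -0.04 and 0.18.

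Outside these stretches the genes that were higher in all clones include ubiquitin ligase genes and a transcription factor, and none passed the edgeR test. Of 333 genes with at least 5 CPM in the higher group that lay above every parental library, 0 were called by edgeR and 131 by DESeq2, and 271 had an unadjusted edgeR p under 0.05, so 7 with small unadjusted p are given, with edgeR adjusted p of 0.0684 to 0.101. Both this set and the lower set below were chosen for no overlap in these same libraries, so their DESeq2 counts are not separate support. Lonrf3, a RING finger and Lon domain protein gene, stood at 14.9, 10.5, 21.1, 24.3 and 33.0 CPM in R13, R1, R14, R16 and R25, against 3.01, 4.89 and 2.67 CPM in parental cells (log2 fold change of 2.56 ± 0.40). Herc3, a HECT domain ubiquitin ligase gene, stood at 14.3, 12.02, 17.8, 17.2 and 15.7 CPM in R13, R1, R14, R16 and R25, against 6.24, 5.66 and 5.87 CPM in parental cells (1.38 ± 0.18). R1 was the lowest clone for both genes, and it still lay above the highest parental library.

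Another 5 genes of this kind followed. Nap1l5, a gene that lies inside Herc3, was at 3.61 to 8.62 CPM in the clones and 0.910 to 1.68 CPM in parental cells (log2 fold change of 2.26 ± 0.38). Rap1gap2, which switches off the small GTPase Rap1, stood at 32.7 to 50.5 CPM in the clones and 15.5 to 20.3 CPM in parental cells (1.21 ± 0.18). Sim2, a bHLH-PAS transcription factor gene, stood at 8.83 to 20.5 CPM in the clones against 2.06 to 4.00 CPM in parental cells, Ttc39a at 7.80 to 10.7 against 2.47 to 4.14 CPM and the cytochrome P450 gene Cyp4f16 at 11.8 to 16.96 against 4.91 to 6.96 CPM. In sonidegib-treated parental cells Cyp4f16 was at 9.25 and 14.9 CPM, partly inside the clone range, whereas Lonrf3 at 2.35 and 0.839 CPM was not.

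Among genes lower in all clones, 501 had at least 5 CPM in the higher group, and edgeR called 1 of them and DESeq2 132. Another 7 with small unadjusted p had edgeR adjusted p of 0.0684 to 0.0829. Rgs8, which speeds the shut-off of G protein signals, stood at 1.22, 4.05, 1.62, 2.45 and 6.55 CPM in R13, R1, R14, R16 and R25, against 33.9, 35.6 and 22.2 CPM in parental cells (log2 fold change of -3.27 ± 0.49). Kcnj10, an inward rectifier potassium channel gene of glia, stood at 0.972, 0.970, 0.478, 0.806 and 0.577 CPM in the clones and at 6.62, 6.38 and 2.70 CPM in parental cells (-2.79 ± 0.39). The highest clone lay well below the lowest parental library for both genes.

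Smaller but tightly grouped differences followed. Lrrn1, a leucine-rich repeat membrane protein gene, stood at 393, 424, 433, 371 and 403 CPM in the clones, against 685, 657 and 665 CPM in parental cells (-0.72 ± 0.10). Evc, a ciliary membrane protein that binds Smo, stood at 30.2, 30.3, 32.2, 30.8 and 30.1 CPM in the clones and at 47.7, 59.7 and 48.8 CPM in parental cells (-0.76 ± 0.11). The 5 clones lay close together for Evc, closer than the parental libraries. Choice by small p favours genes with little spread, so this closeness is not a separate result. Kcne1l was at 14.1 to 18.6 CPM in the clones and 29.5 to 32.2 CPM in parental cells, Pou6f1, a POU domain factor gene, at 83.4 to 118 and 162 to 216 CPM, and Tcf7l2, at the end of the second stretch on chromosome 19, at 3.85 to 6.28 and 10.6 to 16.2 CPM. Sonidegib-treated parental cells were above the clones for Evc, at 50.96 and 54.7 CPM, and for Kcne1l, at 48.4 and 55.3 CPM.

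**Figure D2:**
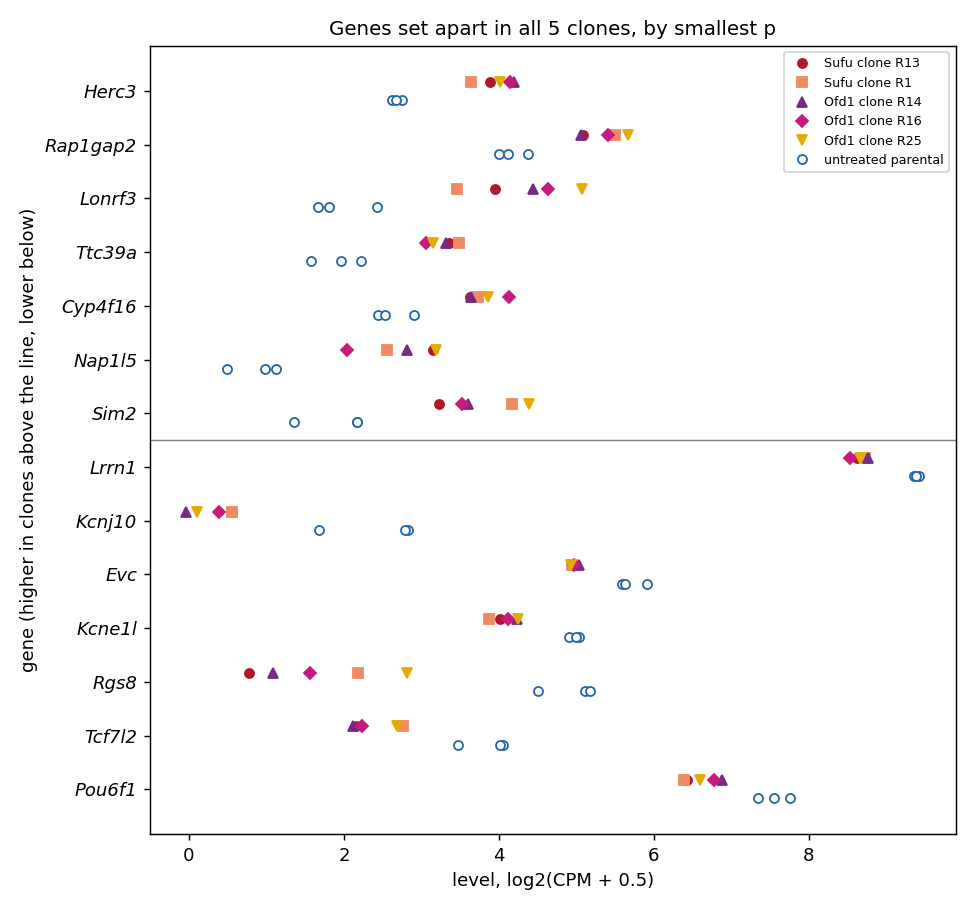
Level as log2(CPM + 0.5) of 7 genes higher and 7 genes lower in all clones with small unadjusted p, with the 5 clones above and the 3 untreated parental libraries as open circles below in each row. The ranges do not overlap in any row because genes were chosen for that. With adjustment over all genes edgeR called 0 of these 14 and DESeq2 called 14. The genes were also chosen for small p in these same libraries, so the DESeq2 count is not separate support.

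Most Hedgehog targets overlapped between clones and parental cells. Of 16 tested targets edgeR called 0 and DESeq2 1, and 1 was set apart, on the high side, 6.25% against 3.74% of all genes, and the median log2 fold change of the list was 0.16 against 0.01 over all genes. Gli1, the Gli factor that is itself a target, stood at 231, 239, 134, 185 and 70.6 CPM in R13, R1, R14, R16 and R25, against 224, 219 and 241 CPM in parental cells, with 7.71 and 8.87 CPM after sonidegib. The Sufu clones were at the parental level and the Ofd1 clones below it, and the lowest clone, R25, was still far above the sonidegib libraries (log2 fold change of -0.41 ± 0.33, edgeR adjusted p = 0.683).

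Other targets split between clones or stayed within the parental range. Hhip, a membrane protein that binds Hedgehog ligands, stood at 162, 247, 97.7, 218 and 288 CPM in the clones and 120, 86.1 and 137 CPM in parental cells (0.82 ± 0.32, adjusted p = 0.410), with R14 inside the parental range. Ptch1 was at 78.9 to 110 CPM in the clones and 66.1 to 86.8 CPM in parental cells. The cyclin gene Ccnd1 was at 548 to 1433 and 718.5 to 868 CPM, and Mycn, a growth-promoting factor gene, at 34.8 to 95.3 and 49.6 to 61.4 CPM, both overlapping. Atoh1, Bcl2, Boc, Ccnd2, Cdk6, Foxa2, Gas1, Igf2, Prdm1 and Sfrp1 overlapped too, with log2 fold changes from -0.41 for Sfrp1 to 2.37 for Foxa2, a gene at 0.129 to 0.524 CPM in the clones and 0 to 0.176 CPM in parental cells. Those of Ccnd1, Ccnd2, Igf2, Atoh1 and Gas1 changed sign when 1 library was left out.

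Genes that carry the signal into and out of the cilium went both ways. Among 16 tested receptors and transducers, 8 had a positive and 8 a negative log2 fold change, with a median of 0.02. Of them 3 lay below every parental library, 18.8% against 4.12% of all genes, and 1 above, 6.25% against 3.74%. EdgeR called 0 and DESeq2 4, 1 higher and 3 lower, where DESeq2 called 2.82% of all genes. Smo itself stood at 189, 174, 223, 224 and 167 CPM in R13, R1, R14, R16 and R25, against 297, 273 and 270 CPM in parental cells (log2 fold change of -0.52 ± 0.13, edgeR adjusted p = 0.219). Gpr161, a ciliary receptor that keeps the pathway off, stood at 9.15, 11.2, 13.4, 12.2 and 14.7 CPM in the clones and 19.5, 20.3 and 19.8 CPM in parental cells (-0.71 ± 0.17, adjusted p = 0.205). All 5 clones were below the parental range for both, as for Evc above. The 2 sonidegib-treated libraries were not alike in these genes. They held 300 and 315 CPM of Smo, both above untreated cells, but 22.2 and 1.71 CPM of Gpr161, 37.8 and 21.2 CPM of Kif7 and 24.9 and 5.63 CPM of Sufu, so that the second was below the untreated range for the last 3 genes and below every clone for Gpr161, while the first was below the untreated range for Sufu.

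Among 19 tested Gli factors and Gli-processing genes, 2 were below all parental libraries, Sufu and Kif7, 10.5% against 4.12% of all genes, and 1 above, Ulk3, 5.26% against 3.74%. Neither edgeR nor DESeq2 called any of the 19, and 3 had an unadjusted edgeR p under 0.05, where 11% of all genes did. Kif7, a kinesin that places Gli and Sufu at the cilium tip, stood at 25.2, 27.6, 24.3, 25.5 and 12.7 CPM in the clones and 33.2, 34.9 and 31.0 CPM in parental cells (-0.52 ± 0.23, adjusted p = 0.447). Gli2, the main activator, was at 187 to 609 CPM in the clones and 250 to 334 CPM in parental cells and overlapped. In the list of 58 cilium transport and transition zone genes, 6 lay below all parental libraries, 10.3% against 4.12%, and 1 lay above, 1.72% against 3.74%. EdgeR called 0 of these 58 and DESeq2 1, and the median was -0.13. The low ones were Arl3, in the stretch beside Sufu, B9d1, Bbs7, Ift122, Ift88 and Tulp3. Tulp3, which delivers Gpr161 to the cilium, stood at 176, 195, 156, 169 and 169 CPM in the clones and 204, 224 and 231 CPM in parental cells (-0.35 ± 0.10, adjusted p = 0.285). Of 28 centriole and satellite genes 0 lay below and 1 above, 3.57% against 3.74%. The cilium median was 0.09 with parental replicate 3 as the only control.

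**Figure D3:**
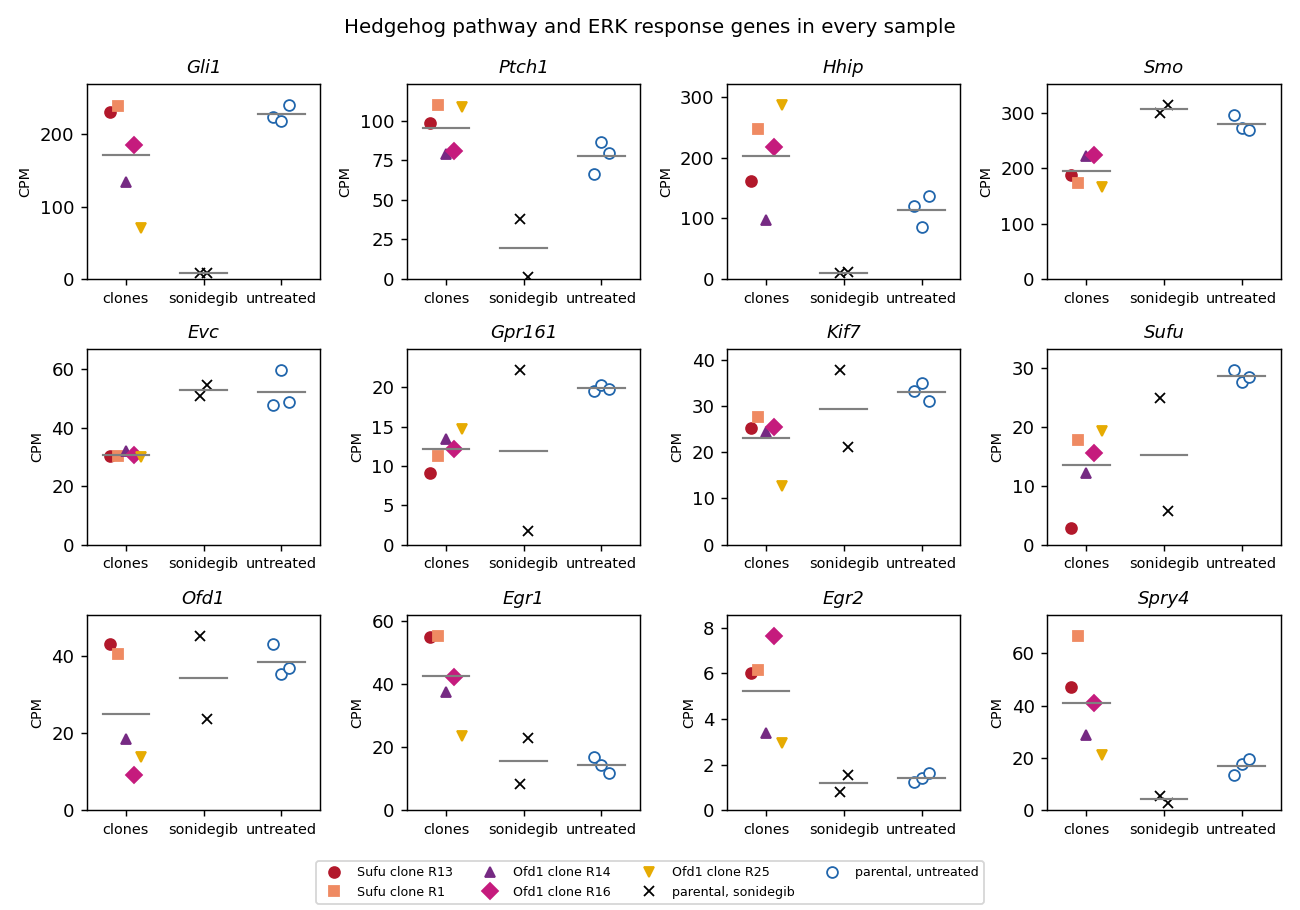
Level in CPM, from 0, of Hedgehog pathway genes and of the ERK response genes Egr1, Egr2 and Spry4 in the 5 clones, the 2 sonidegib-treated and the 3 untreated parental libraries, with grey lines for group means. Gli1 and Hhip are far lower after sonidegib than in any clone, and Smo, Evc, Gpr161, Kif7 and Sufu are below the untreated range in every clone.

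The list of MAPK output and immediate early genes had the largest share above the parental libraries. It includes genes that report ERK signalling, the kinase cascade below growth factor receptors, and that signalling itself was not tested. Of 24 tested members 5 were set apart on the high side, 20.8% against 3.74% of all genes, and 0 on the low side. EdgeR called 0 and DESeq2 6, all higher, where DESeq2 called 2.82% of all genes. Of the 24, 18 had a positive and 6 a negative log2 fold change, and the list median was 0.35. The 5 were the early growth response factor genes Egr1, Egr2 and Egr3 and the feedback inhibitor genes Spry1 and Spry4. Egr1 stood at 55.1, 55.4, 37.5, 42.3 and 23.6 CPM in R13, R1, R14, R16 and R25, against 16.9, 14.4 and 11.95 CPM in parental cells (log2 fold change of 1.57 ± 0.28, edgeR adjusted p = 0.114). Egr2 stood at 5.99, 6.16, 3.39, 7.64 and 2.96 CPM in the clones and 1.24, 1.43 and 1.61 CPM in parental cells (1.87 ± 0.38, adjusted p = 0.151). R25 was the lowest clone for both, and still above the parental range.

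Spry4 stood at 47.2, 66.7, 28.9, 41.0 and 21.05 CPM in the clones, against 13.7, 17.6 and 19.4 CPM in parental cells (1.28 ± 0.35, adjusted p = 0.246), and Spry1 was at 15.6 to 19.3 and 9.41 to 12.98 CPM. After sonidegib Spry4 was at 5.43 and 2.85 CPM, below untreated cells, and Egr1 at 8.21 and 23.1 CPM. The list median was 0.12 with parental replicate 3 as the only control. Dusp5, another ERK feedback gene of the list, lies in the second low stretch on chromosome 19 and had a log2 fold change of -0.51. Atf3, a stress-induced factor gene, was also above all parental libraries, at 8.51, 27.4, 11.6, 39.6 and 11.9 CPM in the clones and 5.35, 3.70 and 7.46 CPM in parental cells. The wider list of 25 stress response genes had 1 member so set apart, Atf3, 4% against 3.74% of all genes.

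The promoter of Egr2 is shown because it holds a CArG box, the element bound by serum response factor, and because Egr2 was among the ERK response genes with the largest fold change. The window runs from 250 bases before to 50 bases after the start, on the plus strand of chromosome 10, chr10:67537316-67537615 in GRCm38.p6 from RefSeq, and capitals mark the CArG box, which begins 72 bases before the start.
Egr2: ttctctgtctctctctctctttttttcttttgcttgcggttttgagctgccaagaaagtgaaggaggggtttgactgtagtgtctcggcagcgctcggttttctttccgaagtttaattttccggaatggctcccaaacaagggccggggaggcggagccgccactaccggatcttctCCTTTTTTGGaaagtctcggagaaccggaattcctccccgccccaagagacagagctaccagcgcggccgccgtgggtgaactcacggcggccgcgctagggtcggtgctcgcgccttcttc
A search of both strands found a CArG box in 2 of the 14 tested list members with a window, Egr2 and Dusp5. Among all tested genes with a window, 1.65% held one. Egr2 had 5 windows, of which 4 held a box. Egr1, Egr3 and Spry4 had no window and were not searched. The match describes the sequence and says nothing of binding in these cells.

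Wnt pathway genes lay on both sides of the parental range. Of 37 tested members 6 lay below all parental libraries, 16.2% against 4.12% of all genes, and 3 lay above, 8.11% against 3.74%. EdgeR called 0 and DESeq2 8, where DESeq2 called 2.82% of all genes, and the median was -0.01. Wnt5a, a ligand that acts mostly without beta-catenin, stood at 25.6, 18.1, 13.5, 11.4 and 12.5 CPM in R13, R1, R14, R16 and R25, against 62.7, 60.7 and 32.2 CPM in parental cells (log2 fold change of -1.68 ± 0.30, edgeR adjusted p = 0.113). Wnt5b, its close relative, was at 2.37 to 3.68 CPM in the clones and 4.39 to 10.01 CPM in parental cells. Sfrp2, a secreted Wnt antagonist, was at 58.8 to 93.3 and 118 to 178 CPM.

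The TCF factors, which carry the Wnt signal to DNA, differed among themselves. Tcf7l2 and Tcf7l1 were low in all clones, the second at 8.83, 7.38, 7.81, 6.48 and 12.3 CPM against 13.02, 18.2 and 14.6 CPM in parental cells. Tcf7 was high, at 2.79, 2.66, 3.17, 2.68 and 1.65 CPM in the clones against 0.475, 0.529 and 0.793 CPM in parental cells (2.11 ± 0.35, adjusted p = 0.0982). Among receptors, Fzd6 was higher, at 11.7 to 35.9 CPM in the clones and 3.68 to 9.48 CPM in parental cells, and Fzd9 was lower, at 0.734 to 3.08 and 3.83 to 4.67 CPM. The clone with the lowest Tcf7 and Fzd9 was R25 in both cases.

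Matrix, adhesion and guidance genes showed single members set apart rather than whole lists. Fbn2, a microfibril protein gene, stood at 18.0, 4.72, 10.8, 13.8 and 6.34 CPM in R13, R1, R14, R16 and R25, against 1.77, 2.01 and 2.32 CPM in parental cells (log2 fold change of 2.40 ± 0.46, edgeR adjusted p = 0.133). Emilin1 and elastin, also of elastic fibres, lay below the parental range, with Emilin1 at 1.89 to 4.50 CPM in the clones and 8.31 to 13.7 CPM in parental cells (-1.85 ± 0.31, adjusted p = 0.0990) and the elastin gene Eln at 4.35 to 12.4 and 13.7 to 24.4 CPM. Of 22 tested elastic fibre genes 3 lay below, 13.6% against 4.12% of all genes, and 1 above, 4.55% against 3.74%, while 12 of the 22 had a positive log2 fold change and the median was 0.08. Col18a1, a basement membrane collagen gene, stood at 7.78, 4.81, 117, 62.2 and 38.1 CPM in the clones and 3.83, 4.74 and 2.82 CPM in parental cells, so R1 was only just above the parental range and the Ofd1 clones far above it.

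Among 28 integrin and cadherin genes 4 lay above all parental libraries, 14.3% against 3.74% of all genes, and 1 below, 3.57% against 4.12%. Of the 28, 14 had a positive and 14 a negative log2 fold change. The protocadherin gene Pcdh19 stood at 4.58, 2.78, 9.85, 8.13 and 39.4 CPM in the clones and 1.33, 1.48 and 2.496 CPM in parental cells, with R25 the highest. The integrin gene Itga4 was at 2.32 to 6.605 CPM in the clones and 0.570 to 2.14 CPM in parental cells. Itga4, Cerkl and the neuronal factor gene Neurod1 are neighbours on chromosome 2 and were all above the parental libraries. Of 58 axon guidance genes 4 lay above, 6.90% against 3.74%, and 1 below, 1.72% against 4.12%, near the shares of all genes. Among them was the ephrin receptor gene Epha8 at 76.0 to 228 CPM in the clones and 8.92 to 60.0 CPM in parental cells, where parental replicate 3 held the highest parental value. Ephb4, another ephrin receptor gene, was at 7.13 to 13.2 and 13.5 to 38.1 CPM, also with replicate 3 nearest to the clones.

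**Figure D4:**
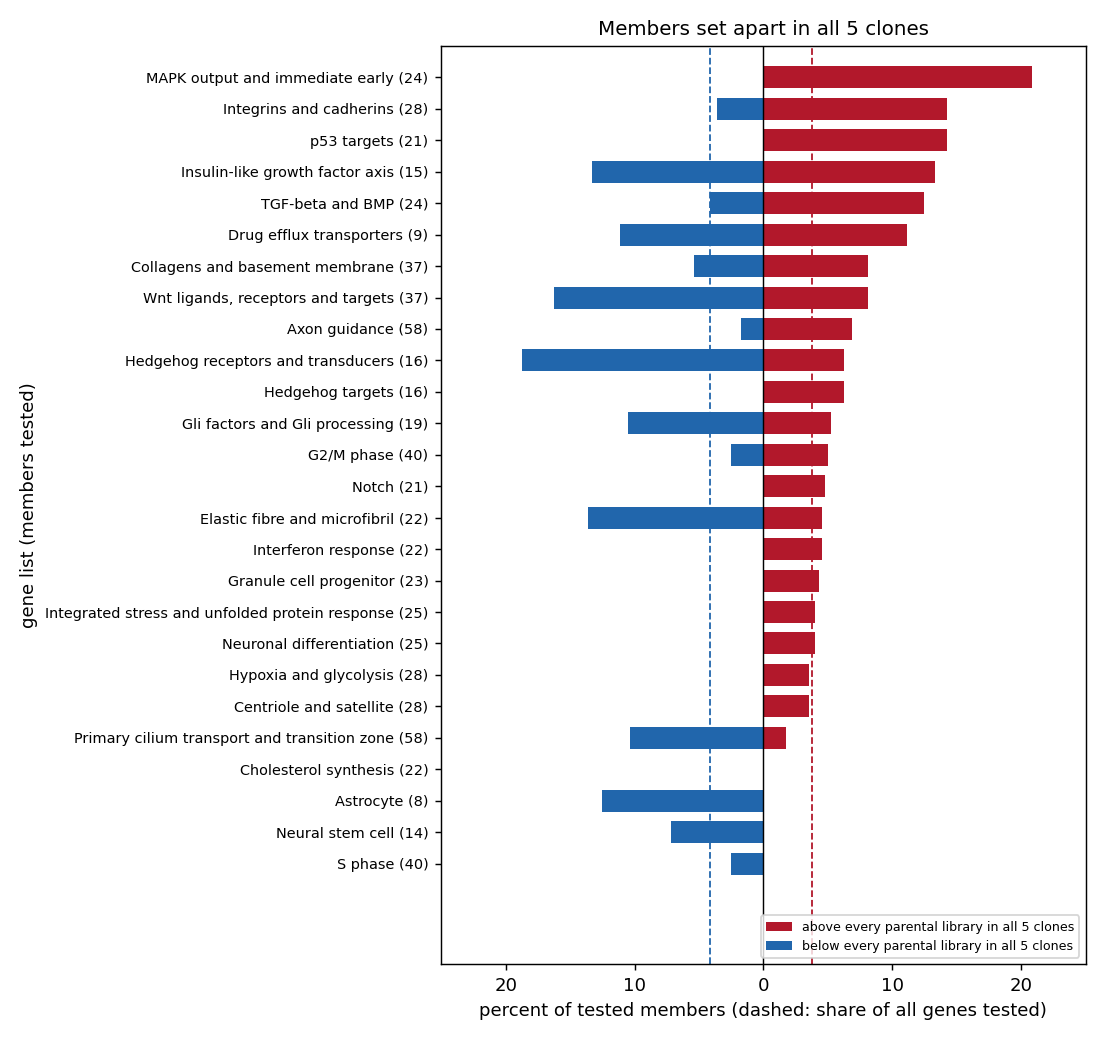
Share of the tested members of each gene list with at least 8 tested members that lay above (right) or below (left) every untreated parental library in all 5 clones, with the number tested in brackets. Dashed lines mark the shares over all genes tested, 3.74% above and 4.12% below. The longest bars are 20.8% above for MAPK output and immediate early genes and 18.8% below for Hedgehog receptors and transducers.

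Drug efflux transporters, which can lower the level of a drug in cells, had 0 members called by edgeR or DESeq2. An unadjusted edgeR p under 0.05 was found for 2 members, and for 11% of all genes. Of 9 tested members 1 lay above and 1 below, 11.1% each against 3.74% and 4.12% of all genes. Abcb1b, a P-glycoprotein gene, stood at 1.01, 2.07, 1.00, 0.580 and 2.52 CPM in R13, R1, R14, R16 and R25, against 0.507, 0.503 and 0.0881 CPM in parental cells. Abcg2 stood at 2.07, 0.295, 1.86, 2.58 and 1.94 CPM in the clones and 7.35, 6.67 and 2.64 CPM in parental cells. Both were low transcripts and neither passed, with edgeR adjusted p of 0.354 and 0.351.

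Lists of stem cell, glial and neuronal markers were mixed, and single members were set apart. Stem cell genes had a median log2 fold change of -0.28 and astrocyte genes of -0.57, while 5 of 7 oligodendrocyte lineage genes were positive with a median of 0.43. Of 25 neuronal differentiation genes 16 were positive, with a median of 0.19. Of 23 granule progenitor genes 14 were negative, with a median of -0.11. Sox2, a neural stem cell factor gene, stood at 10.8, 12.8, 2.20, 6.51 and 3.15 CPM in R13, R1, R14, R16 and R25, against 31.9, 34.4 and 23.4 CPM in parental cells (log2 fold change of -2.09 ± 0.51, edgeR adjusted p = 0.221). It was the 1 of 14 tested stem cell genes that lay below all parental libraries, 7.14% against 4.12% of all genes. The glutamate transporter gene Slc1a3 was at 68.0 to 127 CPM in the clones and 141 to 223 CPM in parental cells. It was 1 of 8 tested astrocyte genes, 12.5% against 4.12% of all genes. The 12 astrocyte genes in the table summed to 299 to 495 CPM of the library total in the clones and 444 to 717 in parental cells. Of 3 defining genes of astrocytes, Aqp4 and Aldh1l1 stayed at or near 0 throughout. The third, Gfap, was present, at 2.43 to 20.1 in the clones and 13.7 to 35.9 in parental cells on that scale. The part of cell composition in these levels was not tested. In these bulk libraries fewer cells of a type and less RNA per cell cannot be told apart. Map2, a dendrite protein gene, was at 159 to 413 CPM in the clones and 79.0 to 143 CPM in parental cells. It was 1 of 25 tested neuronal differentiation genes, 4% against 3.74% of all genes. Others of that list had negative log2 fold changes with overlapping ranges, among them Ina at -0.94, Rbfox3 at -0.85 and Stmn3 at -0.81. Ina lies in the low stretch beside Sufu on chromosome 19. Neurod1, of the granule progenitor list, was at 20.2 to 32.1 CPM in the clones and 13.4 to 16.1 CPM in parental cells. It was 1 of 23 tested genes of its list, 4.35% against 3.74% of all genes.

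Cell cycle genes were close to the background. Of 40 S phase genes 1 lay below all parental libraries, 2.5% against 4.12% of all genes, and 0 above. Of 40 G2/M genes 2 lay above, 5% against 3.74%, and 1 below, 2.5% against 4.12%. The S phase median was -0.07 and the G2/M median 0.10, but the single clones ranged from -0.35 in R1 to 0.17 in R16 for S phase. Among 21 p53 target genes 3 lay above all parental libraries, 14.3% against 3.74%, namely Perp, Phlda3 and Eda2r, and 0 below. EdgeR called 0 of the 21 and DESeq2 4, 3 higher and 1 lower, where DESeq2 called 2.82% of all genes. Phlda3 was a low transcript, at 0.464 to 1.39 CPM in the clones and 0.176 to 0.444 CPM in parental cells. Eda2r, a receptor of the tumour necrosis factor family, stood at 127, 140, 61.4, 90.6 and 66.4 CPM in the clones, against 34.5, 43.8 and 54.7 CPM in parental cells (1.13 ± 0.30, adjusted p = 0.242). It was at 11.2 and 6.71 CPM after sonidegib. The cholesterol synthesis list had 0 of 22 members set apart. In the interferon list 1 of 22 lay above, the MHC class I gene H2-D1, 4.55% against 3.74% of all genes. The insulin-like growth factor axis had 2 above and 2 below of 15, 13.3% each against 3.74% and 4.12%. Of 684 tested genes in all 30 lists together edgeR called 0, and 115 had an unadjusted edgeR p under 0.05, against 11% of all genes. DESeq2 called 52 of the 680 to which it gave an adjusted p, 35 higher and 17 lower, against 2.82% of all genes. The lists were chosen with earlier results of these data known.

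Whether a shared difference hides one between the classes of clone was tested directly, Ofd1 against Sufu clones in a fit with 3 groups. Of 13891 genes 1 passed, Lrrfip1, which codes for a nucleic acid binding protein. It stood at 9.59, 10.5 and 13.7 CPM in the Ofd1 clones R14, R16 and R25, against 66.5 and 64.0 CPM in the Sufu clones R13 and R1 (log2 difference of -2.53 ± 0.21 SE, edgeR adjusted p = 0.0217). Parental cells held 25.7, 22.2 and 31.9 CPM, between the classes. Without clone R1, R14 or R16, or without parental replicate 1 or 2, 0 genes passed. For the 14 genes of the plot of genes set apart, the class difference had adjusted p of 0.502 to 0.980, which does not show that the classes are alike.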

How the data were processed

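Poly(A) RNA of SMB21 cells was sequenced in 11 libraries, made per the labels with a stranded kit from 500 ng of RNA and read as single 75 bp ends on 1 instrument run. The authors deposited 1 table of unnormalized read counts by gene symbol. STAR, DESeq2 and mm9 are named per the submitters' processing notes; which counter, annotation and versions were used is not given in the sources at hand. The table held 22619 genes and 1 entry that names no gene, which took 0.0131% to 0.0192% of a library and was left out. Totals ran from 24308451 to 38241595 counts per library. No molecular identifiers were used, so reads may be PCR copies. The labels call the parental libraries, and the 2 of R14, biological replicates and do not say what was separate, so p-values measure the spread between these samples.

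The 2 R14 libraries were summed, and 5 clones were set against 3 untreated parental libraries with edgeR 4.0.16 in R 4.3.3 (TMM, filterByExpr, robust quasi-likelihood F test, two-sided, Benjamini-Hochberg over 13891 genes, called at 0.05). The procedure was tested on simulated data. Fold changes carry an SE from the F statistic. Log2 differences per library add 0.5 CPM. The members, the 30 gene lists and the settings were chosen with earlier results of these data known. The text names genes by a rule: called genes with a log2 fold change of at least 1, a mean of 5 CPM or more and no overlap, and, where fewer than 5 pass in a direction, the 8 non-overlapping genes with the smallest unadjusted p; Ofd1, Sufu and the detected Hedgehog targets in any case. Some genes that the rule selects, the called one among them, are not reported here, though counts over all genes and lists include them. Other genes, and both stretches on chromosome 19, were chosen after their values were seen. Chromosome and gene order come by symbol from GRCm38.p6, not the build of the reads, for 99.5% of tested genes, so no positions of reads are given. How strand was used in counting is not given, and Herc3 and Nap1l5, Evc and Crmp1, Ofd1 and Gpm6b, Gli1 and Arhgap9, Kif7 and Ticrr, Gpr161 and Tiprl, Wnt5b and Fbxl14, and Sox2 and Sox2ot overlap in the annotation. Alternatives were DESeq2 1.42.0 as test and as scaling, no filter, other treatments of R14, equal weight for both classes, each sample left out, parental replicate 3 as the only control and sonidegib libraries added to the controls.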

Additional observations from a re-analysis of the deposited data

Results flagged for a closer look

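In 4 genes the lowest of the 5 clones stood apart from the other clones by a Dixon test at 95%, among 68 named genes tested, where chance flags about 1 in 20. Sufu was at 2.79 CPM in clone R13, the lowest of the 5, while the other clones stood at 12.1 to 19.3 CPM. Kif7 was at 12.7 CPM in R25, against 24.3 to 27.6 CPM in the other clones. Tcf7 was at 1.65 CPM in R25. Abcg2 was at 0.295 CPM in R1.

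The 1 gene that differed between the classes of clone by its own test was Lrrfip1, with a log2 difference of -2.53 of Ofd1 from Sufu clones.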

How the results depend on the processing

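No paired analysis was possible because clones carry clone names and no number that ties them to a parental library, and the numbers of the R14 libraries mark 2 libraries of 1 clone. The count of called genes was 424 with the DESeq2 test (202 of them higher and 155 lower with no overlap), 27 with the R14 libraries kept apart (9 and 18), 86 with the sonidegib libraries as further controls (41 and 39), 2 with no filter (2 lower) and 0 with parental replicate 3 as the only control (0 lower), where a lone library is assumed to vary like the clones. With that control 2879 genes lay above and 2806 below it in every clone, and with the sonidegib libraries added 286 lay above. Leaving out 1 sample gave 1 to 64 called genes, 0 to 25 of them higher and 1 to 39 lower, 600 to 1638 genes above and 653 to 1694 below all parental libraries, and 0 to 3 genes that differed between the classes.

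Of 1148 values of 68 named genes under 17 settings, 17 changed sign, in 10 genes. With 1 sample left out Ccnd1 ran from -0.19 to 0.20, Ccnd2 from -0.059 to 0.29, Igf2 from -0.31 to 0.56, Atoh1 from -0.22 to 0.037, Gas1 from -0.37 to 0.13, Lrrfip1 from -0.13 to 0.54 and Gli2 from -0.30 to 0.21. With the sonidegib libraries added Gli1 was at 0.28, Bcl2 at 0.27, Cdk6 at 0.20 and Gas1 at 0.19. Atoh1 was at 0.14 against parental replicate 3 alone, and Gli2 at -0.082 with both classes given equal weight. The cause was not tested. The DESeq2 test called 39 of the 68 named genes, and edgeR did not. DESeq2 called 2.82% of all genes, but many of the 68 were named for ranges without overlap or after their values were seen. The median of the 18 genes from Nfkb2 to Pdcd11, an addition made after the data were seen, was -0.71 and ran from -0.84, without clone R25, to -0.63 over the same settings. For the 16 genes from Xpnpep1 to Tcf7l2, also picked after the data were seen, the median was -0.52. It ran from -0.75, against parental replicate 3 alone, to -0.35, with the sonidegib libraries added. With 3 parental libraries, 1 of which lies nearer to the clones, the spread among them limits every comparison.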

Other observations

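Other neighbouring genes lay on one side of the parental range together. In consecutive tested genes there were 83 runs of 2, 10 of 3, 3 of 4 and 1 of 5 in which all members were set apart the same way. The run of 5 was Tmem180, Actr1a, Sufu, Trim8 and Arl3. Over all genes 3.74% lay above and 4.12% below, and the number of runs that these shares alone would give was not tested. Herc3 and Nap1l5, a run of 2, overlap in the annotation, so reads may be shared between them. On chromosome 3, 4 histone genes, Hist2h3c2, Hist2h2aa2, Hist2h2aa1 and Hist2h3c1, were higher in the clones, with a median log2 fold change of 0.82, and these copies are near identical, so their reads may be split between them. On chromosome 17 the MHC class I genes H2-D1, H2-Q1 and H2-Q4 were higher, with a median of 1.08.

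Medians of whole chromosomes differed among the clones. The median log2 difference to the parental mean was 0.41 in R16 and 0.24 in R25 on chromosome 4, and -0.28 in R13, -0.18 in R16 and -0.28 in R25 on chromosome 14. It was 0.32 in R1 on chromosome 12, 0.25 in R1 on chromosome 9 and 0.29 in R14 on chromosome 8. On chromosome 17 it was 0.38 in R16 and 0.16 in R14, against 0.18 in parental replicate 3.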
